A study of Mus musculus with 16 samples.

Results

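The genes described here are 10 members of the BCL2 family, the proteins that decide whether the mitochondrial outer membrane stays closed or is opened during apoptosis. They were chosen by symbol, as the rows named Bcl2, Bcl2l1, Bcl2l2, Mcl1, Bax, Bak1, Bcl2l11, Bid, Bik and Bmf among the 55367 gene rows of each count table, and all 10 rows were found. The RNA came from mIMCD3 cells, a line derived from the mouse inner medullary collecting duct, a segment of the kidney that is normally surrounded by concentrated, salty fluid. WT cells received DMSO (the solvent) or 10 μM SFN (sulforaphane, which activates the transcription factor Nrf2) for 5 h, and RNA was taken under isosmotic conditions, after 1 h or after 6 h of hyperosmotic stress at 600 mOsm. Nrf2-/- cells were made with CRISPR/Cas9 delivered by lentivirus and drug selection, received SFN only, and were sampled before stress and 1 h into it. This gives 8 groups of 2 libraries, 16 in all, which the study calls biological replicates, and whether the Nrf2-/- cells were 1 clone is not given in the sources used here. Nrf2-/- cells without SFN, or after 6 h of stress, were not analysed here.

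BCL2-family proteins fall into functional classes. The anti-apoptotic members (Bcl2, Bcl2l1, which encodes BCL-XL, Bcl2l2, which encodes BCL-W, and Mcl1) hold the pore-forming effectors Bax and Bak1 in check, and the BH3-only members (Bcl2l11, which encodes BIM, Bid, Bik and Bmf) release or activate the effectors. Once BAX or BAK form pores, cytochrome c leaves the mitochondria and caspases are activated, and in the kidney this pathway is engaged by toxic, ischemic and osmotic injury.

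Library totals ran from 34484296 to 50774875 counts. The 2 libraries of a group had a biological coefficient of variation, the relative spread beyond counting noise, of 0.0395 to 0.128 in 7 groups and of 0.348 in the Nrf2-/- 1 h group, whose libraries differed most in Bax among the 10 genes. Nfe2l2, which encodes Nrf2, had 386 to 433 counts in the 4 Nrf2-/- libraries and 2496 to 5013 in the 12 WT libraries. Of 13 collecting duct and epithelial markers, 8 or 9 reached 1 CPM (counts scaled to library size) in every group, but Aqp2, the water channel of the mature collecting duct, had 0 to 11 counts. The summed level of these 13 markers was 2414.6 and 2693.3 CPM in isosmotic WT libraries with DMSO and 1836.6 and 1965.1 CPM in those with SFN, and it was 3900.8 to 4181.0 CPM in the 4 WT libraries at 6 h. Of the 11 that passed the filter on low counts, 6 were lower and 1 higher with SFN under isosmotic conditions, and 6 were higher and 2 lower after 6 h with DMSO. The summed level of 12 markers of other cell types was 15.1 to 20.7 CPM in WT libraries under isosmotic conditions or after 1 h, 8.4 to 12.7 CPM in Nrf2-/- libraries and 38.1 to 47.1 CPM in WT libraries after 6 h of stress. Umod was at 0 throughout, and Ptprc, a leukocyte marker, went from 0 to 12 counts per WT library before 6 h to between 132 and 196 at 6 h. These marker levels moved together with the 6 h changes and the isosmotic SFN differences given below, and their part in them was not tested. In such bulk RNA, fewer cells of a type and less RNA per cell cannot be told apart.

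The regions before the starts of 4 members are shown first. They are Bcl2l11, Bcl2l1 and Mcl1, which rose after 6 h of stress, and Bcl2, which fell. Those of Bmf, which also rose, and of Bak1, Bcl2l2 and Bid, which also fell, are not shown. Each run is the 250 bases before the transcription start in RefSeq (build GRCm38.p6), read on the strand of the gene, and 9 of the 10 members matched an entry by symbol, with no entry for Bik. Capitals mark the 1 motif match found.

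Bcl2l11, chr2:128125788-128126037, plus strand: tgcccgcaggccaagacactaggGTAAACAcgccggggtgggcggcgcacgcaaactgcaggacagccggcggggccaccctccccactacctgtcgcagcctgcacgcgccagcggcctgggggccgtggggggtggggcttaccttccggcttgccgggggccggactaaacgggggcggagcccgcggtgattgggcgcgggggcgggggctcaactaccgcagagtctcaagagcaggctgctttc

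Bcl2l1, chr2:152831729-152831978, minus strand: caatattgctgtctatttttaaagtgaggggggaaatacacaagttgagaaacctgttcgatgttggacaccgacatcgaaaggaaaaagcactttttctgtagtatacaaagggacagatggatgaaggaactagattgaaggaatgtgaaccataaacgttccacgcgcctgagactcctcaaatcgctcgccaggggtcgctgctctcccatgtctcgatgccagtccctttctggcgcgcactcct

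Mcl1, chr3:95658471-95658720, plus strand: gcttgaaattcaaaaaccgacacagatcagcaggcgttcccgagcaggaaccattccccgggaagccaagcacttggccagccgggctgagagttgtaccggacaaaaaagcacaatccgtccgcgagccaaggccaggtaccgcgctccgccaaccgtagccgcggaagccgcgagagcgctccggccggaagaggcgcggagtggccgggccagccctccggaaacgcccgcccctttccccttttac

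Bcl2, chr1:106714291-106714540, minus strand: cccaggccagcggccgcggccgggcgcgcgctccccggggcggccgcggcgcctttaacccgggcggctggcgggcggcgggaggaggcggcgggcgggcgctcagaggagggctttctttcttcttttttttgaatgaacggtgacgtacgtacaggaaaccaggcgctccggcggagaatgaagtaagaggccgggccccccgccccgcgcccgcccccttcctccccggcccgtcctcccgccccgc

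Both strands of these windows were searched for 6 motifs. The capitals in the Bcl2l11 window are TGTTTAC, the FOXO site, read on the opposite strand, and Bcl2l11 was the 1 member of 9 that held it, against 3.17% of 32851 RefSeq windows of the same length. None of the 9 windows held TGACNNNGC, the core of the antioxidant response element that Nrf2 binds, which 10.2% of all windows held. None held the AP-1 site TGANTCA (6.75% of all windows), the ATF4 site TTGCATCA (0.791%), the cyclic AMP response element TGACGTCA (1.55%) or the tonicity-responsive enhancer consensus (4.31%). A match here describes letters only, and the absence of one covers this window alone. Bcl2l1 and Bmf had 3 RefSeq entries each and Bcl2l11 had 2. For these genes only the entry nearest the annotated gene start was searched, while the shares of all windows use every entry.

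Per kilobase of exon, Mcl1 was the most abundant member under isosmotic conditions in WT cells with DMSO, at 115 and 116 CPM per kb. Bcl2l1 followed at 37.7 and 39.7 CPM per kb, Bax at 34.3 and 37.8, and Bak1 at 31.3 and 34.8, so that Bax overlapped with both of its neighbours in this order. Bid had 16.1 and 17.1 CPM per kb. The remaining members were lower and their libraries did not overlap with each other: Bcl2l2 averaged 4.89 CPM per kb, Bcl2l11 3.13, Bcl2 1.04, Bik 0.561 and Bmf 0.147. The gene that gave the family its name was thus among the least abundant of its members in these cells. After 6 h of stress with DMSO, Mcl1 averaged 193 CPM per kb, Bcl2l1 74.6, Bax 41.4, Bak1 18.9, Bcl2l11 12.2 and Bid 11.7. With the longest transcript as the length in place of all exons, Bcl2l11 stood above Bak1 at 6 h (19.5 against 19.1 CPM per kb).

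All 10 members passed the filter on low counts, and 9 of them differed somewhere among the 6 WT groups (edgeR quasi-likelihood F-test, Benjamini-Hochberg adjusted p under 0.05), where 71.8% of the 19509 genes tested did. Bik, with 5 to 43 counts in a WT library, had an adjusted p of 0.0839 in this edgeR test. Levels are given below as CPM after TMM normalization, and differences as log2 fold changes with their SE.

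**Figure D1:**
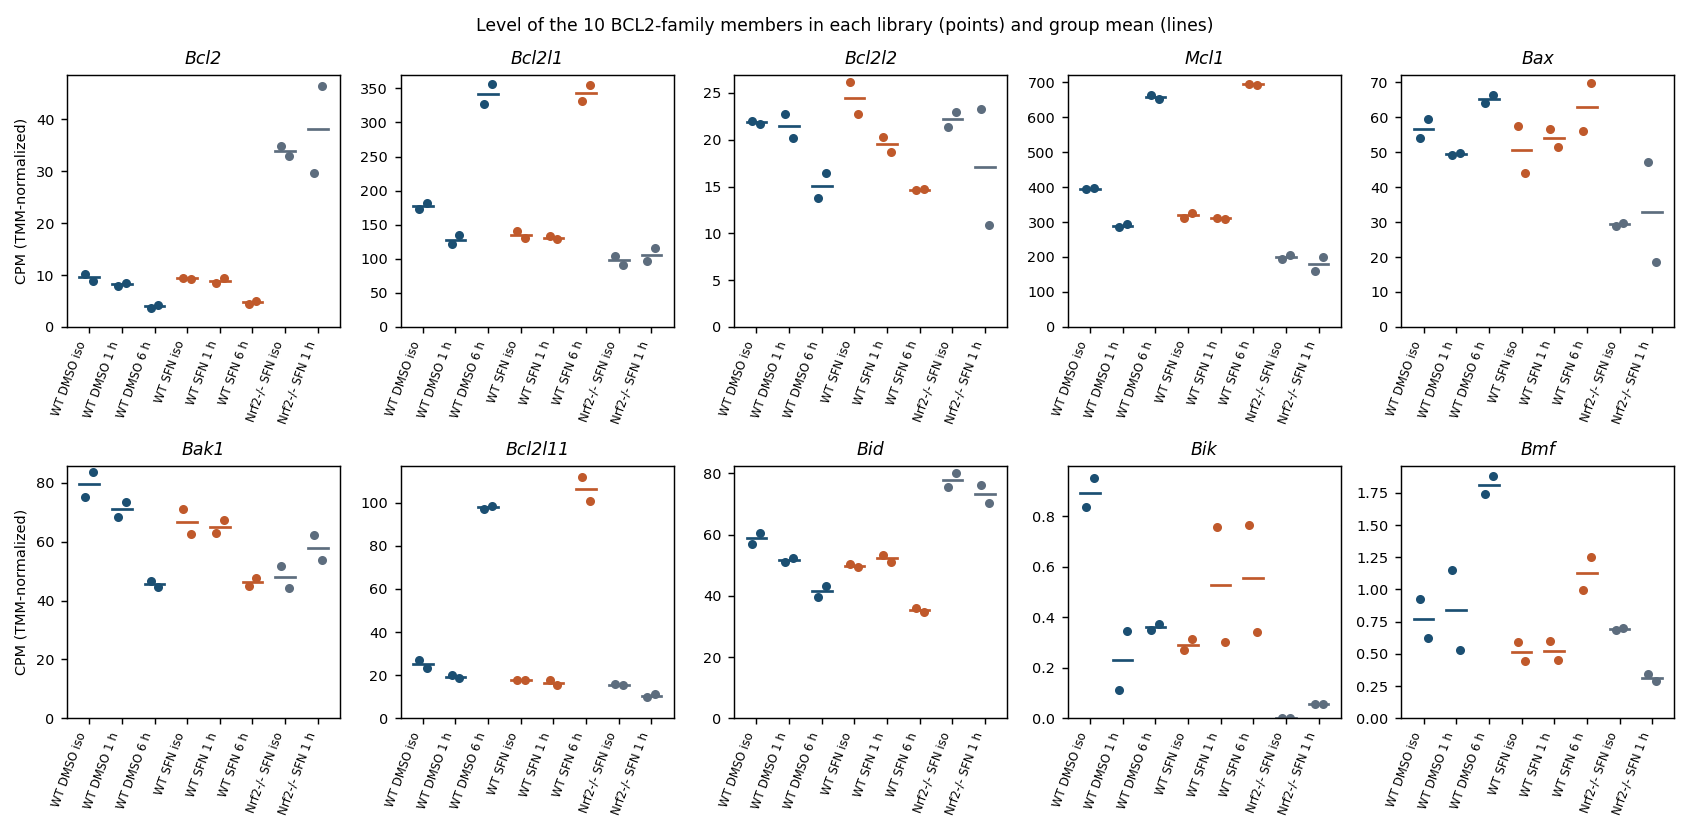
Level of each member in every library, in CPM after TMM normalization (y axis, from 0), for the 8 groups (x axis, iso = isosmotic). Points are libraries and short lines are the means of 2. Bcl2l11, Bcl2l1 and Mcl1 were highest in the 4 WT libraries after 6 h of stress, Bcl2 and Bid were highest in the 4 Nrf2-/- libraries, and the 2 libraries of Nrf2-/- SFN 1 h lie far apart for Bax.

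The first comparison asks how hyperosmotic stress changed the family in WT cells without SFN. After 6 h, Bcl2l11 rose 3.91-fold, Bmf 2.34-fold, Bcl2l1 1.92-fold and Mcl1 1.67-fold, while Bcl2 fell 2.37-fold, Bak1 1.75-fold, Bcl2l2 1.45-fold and Bid 1.42-fold. Both the anti-apoptotic and the BH3-only class therefore held members that rose and members that fell. In all, 4 members rose and 4 fell, and 56.0% of all genes tested passed in this comparison (28.9% higher and 27.2% lower), so the share of members called is to be read against a change of most of the transcriptome. The median log2 fold change was -0.15 over the 10 members and 0.048 over all genes tested.

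Among the anti-apoptotic members, Mcl1, a short-lived protein, had 393 and 396 CPM in the isosmotic libraries, 286 and 294 CPM after 1 h and 652 and 664 CPM after 6 h. Bcl2l1 took the same course, from 173 and 182 CPM through 121 and 135 CPM to 327 and 357 CPM. For both genes the 3 times did not overlap, with the lowest level at 1 h and the highest at 6 h. Against isosmotic, Mcl1 differed by -0.44 ± 0.06 at 1 h (edgeR adjusted p = 7.56e-06) and by 0.74 ± 0.06 at 6 h (edgeR adjusted p = 4.15e-10). Bcl2l1 differed by -0.47 ± 0.07 (edgeR adjusted p = 4.86e-05) and by 0.94 ± 0.07 (edgeR adjusted p = 2.56e-10). Directly between 6 h and 1 h, where 53.0% of all genes passed (25.7% higher and 27.3% lower), 5 members were higher and 4 were lower, and Bcl2l1 rose by 1.42 ± 0.07 and Mcl1 by 1.18 ± 0.06 on the log2 scale.

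Bcl2 itself, the founding anti-apoptotic member, moved in the opposite direction. It had 8.89 and 10.2 CPM under isosmotic conditions, 7.97 and 8.45 CPM after 1 h and 3.71 and 4.32 CPM after 6 h, and the libraries of 6 h lay below all earlier ones. Its change at 6 h was -1.25 ± 0.16 (edgeR adjusted p = 1.14e-06). Bcl2l2, which protects several cell types outside the blood, had 21.7 and 22.0 CPM before stress and 13.8 and 16.4 CPM at 6 h, a change of -0.53 ± 0.12 (edgeR adjusted p = 0.000518). The Bcl2l2 call was lost when all 16 libraries were fitted together. Bcl2 overlaps the antisense gene D630008O14Rik, and the strand setting of the counting is not given in the sources used here, so reads from that strand could be included.

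The effectors parted from each other. Bak1, whose protein sits in the mitochondrial membrane of healthy cells, had 75.3 and 83.8 CPM under isosmotic conditions, 68.5 and 73.4 CPM at 1 h and 44.7 and 46.5 CPM at 6 h, with no overlap between the 3 times. Its change at 6 h was -0.80 ± 0.09 (edgeR adjusted p = 5.01e-08). Bax, whose protein moves from the cytosol to the mitochondria when activated, had 54.0 and 59.5 CPM before stress and 64.1 and 66.4 CPM at 6 h. These Bax groups did not overlap, but the difference of 0.20 ± 0.11 did not pass the test (edgeR adjusted p = 0.142). It passed with RLE size factors (0.29, edgeR adjusted p = 0.0368), with DESeq2 (0.29, adjusted p = 0.0358) and with at least 10 counts in every library (0.32, edgeR adjusted p = 0.0288). The median of all genes at 6 h, 0.048 in the test reported, was 0.136, 0.133 and -0.014 in these 3 settings.

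Among the BH3-only members, Bcl2l11 changed most at 6 h. Its protein BIM binds all of the anti-apoptotic proteins. Bcl2l11 had 23.1 and 27.0 CPM under isosmotic conditions, 18.5 and 20.0 CPM after 1 h and 97.3 and 98.7 CPM after 6 h, so it fell before it rose and its 3 times did not overlap. The changes against isosmotic were -0.38 ± 0.10 at 1 h (edgeR adjusted p = 0.00645) and 1.97 ± 0.09 at 6 h (edgeR adjusted p = 1.81e-13). The fall at 1 h did not pass without WT DMSO isosmotic replicate 1 or without WT DMSO 1 h replicate 2, with an adjusted p of up to 0.0852. Bid, which links death receptors to the mitochondria after cleavage by caspase 8, had 57.0 and 60.6 CPM before stress, 51.0 and 52.5 CPM at 1 h and 39.7 and 43.2 CPM at 6 h. It fell by 0.51 ± 0.08 on the log2 scale at 6 h (edgeR adjusted p = 1.30e-05). The Bid gene overlaps Bcl2l13 on the other strand, and reads from the shared stretch cannot be assigned with certainty.

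Bmf, which is held at the cytoskeleton in resting cells, and Bik, which acts at the endoplasmic reticulum, were scarce. Bmf had 39 and 28 counts under isosmotic conditions (0.619 and 0.929 CPM, lowest and highest) and 60 and 61 counts at 6 h (1.74 and 1.88 CPM), and the groups did not overlap. Its change of 1.23 ± 0.44 passed (edgeR adjusted p = 0.0222) but did not when WT DMSO isosmotic replicate 2 or either 6 h library was left out, with values of 0.96 to 1.54 over all alternatives. Bik had 35 and 43 counts under isosmotic conditions, 5 and 13 counts at 1 h and 12 and 12 counts at 6 h. It was lower at 1 h by -1.98 ± 0.66 (edgeR adjusted p = 0.0362), a call lost in 6 of 10 alternatives, among them the omission of either isosmotic library or of WT DMSO 1 h replicate 1.

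At 1 h with DMSO, 4 of the 10 members were lower (Bcl2l1, Mcl1, Bcl2l11 and Bik) and none was higher, where 22.5% of all genes passed (13.3% higher and 9.21% lower). The other members had log2 fold changes of -0.22 to 0.14 and did not pass. The median was -0.21 over the members and 0.002 over all genes. Without WT DMSO isosmotic replicate 1, 2 members were called instead of 4, and they were Bcl2l1 and Mcl1.

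In WT cells that had received SFN before the stress, the 8 members that passed at 6 h with DMSO passed again in the same directions, and Bax was higher as well. At 6 h, 5 members were higher and 4 lower than in isosmotic SFN libraries, where 58.2% of all genes passed (30.7% higher and 27.5% lower). Bcl2l11 went from 17.8 and 17.9 CPM to 101 and 112 CPM, a 5.98-fold rise (2.58 ± 0.10, edgeR adjusted p = 2.32e-15). Bcl2l1 rose from 131 and 140 CPM to 332 and 355 CPM (1.34 ± 0.07) and Mcl1 from 312 and 327 CPM to 693 and 695 CPM (1.12 ± 0.06). All 3 genes were clear of overlap between the times, as was Bik, which did not pass. Bcl2 fell by 0.97 ± 0.16, Bcl2l2 by 0.74 ± 0.12, Bak1 by 0.53 ± 0.09 and Bid by 0.50 ± 0.08 on the log2 scale. Bax (0.31 ± 0.11, edgeR adjusted p = 0.0254) and Bmf (1.12 ± 0.47, edgeR adjusted p = 0.0439) passed as well, but the Bax groups overlapped. The Bax call was lost without WT SFN isosmotic replicate 2 or WT SFN 6 h replicate 2, and the Bmf call without any 1 of the 4 libraries compared. The median was 0.61 over the members and 0.086 over all genes tested.

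At 1 h with SFN, no member passed (0 of 10 by edgeR, 1 at an unadjusted p under 0.05), where 17.8% of all genes did (10.3% higher and 7.52% lower). Mcl1 had 310 and 312 CPM at 1 h against 312 and 327 CPM before, a difference of -0.04 ± 0.06. Bcl2l1 had 129 and 133 CPM against 131 and 140 CPM, a difference of -0.05 ± 0.07. The groups of Bcl2l1 and of Mcl1 overlapped, unlike those of the same genes with DMSO. Bcl2l2, at -0.32 ± 0.11, came nearest to the threshold (edgeR adjusted p = 0.0537) and passed with no filter on low counts.

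**Figure D2:**
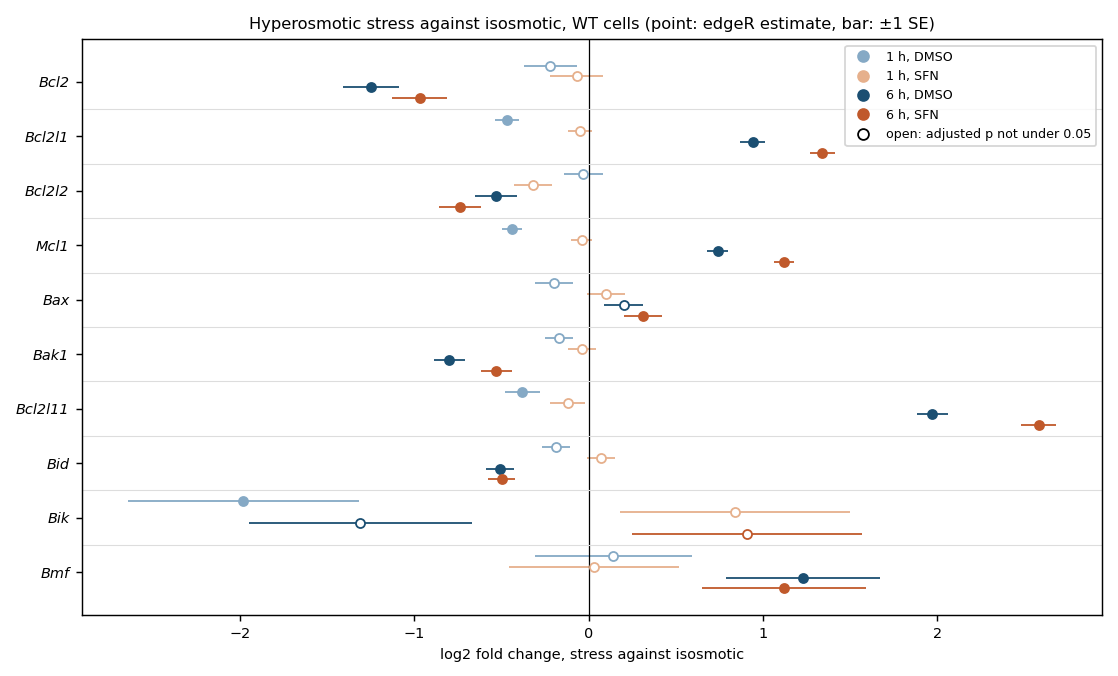
Log2 fold change of each member after 1 h or 6 h of hyperosmotic stress against isosmotic, in WT cells with DMSO or SFN (x axis, points are edgeR estimates, bars ± 1 SE). Filled points passed the test. At 6 h the points for Bcl2l11, Bcl2l1, Mcl1 and Bmf lie right of 0 and those for Bcl2, Bcl2l2, Bak1 and Bid lie left of it, with either pretreatment.

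The second comparison asks what SFN did to the family in WT cells. Under isosmotic conditions SFN lowered 5 members and raised none, where 14.7% of all genes passed (7.24% higher and 7.42% lower). Bcl2l1 was 1.31-fold and Mcl1 1.23-fold lower among the anti-apoptotic members, Bak1 1.19-fold lower among the effectors, and Bcl2l11 1.41-fold and Bid 1.18-fold lower among the BH3-only members. These are small changes, and all classes of the family had a member among them. The median log2 fold change was -0.28 over the members and 0.000 over all genes.

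Bcl2l11 had 17.8 and 17.9 CPM with SFN against 23.1 and 27.0 CPM with DMSO, a difference of -0.49 ± 0.10 (edgeR adjusted p = 0.00134). Bcl2l1 had 131 and 140 CPM against 173 and 182 CPM, a difference of -0.39 ± 0.07 (edgeR adjusted p = 0.000610). Mcl1 had 312 and 327 CPM against 393 and 396 CPM, a difference of -0.30 ± 0.06 (edgeR adjusted p = 0.000961). In each of the 3 genes both SFN libraries lay below both DMSO libraries, as they also did for Bik and Bmf, which did not pass. For Bcl2l2, which did not pass either, both SFN libraries lay above both DMSO libraries. Bak1 (-0.25 ± 0.08, edgeR adjusted p = 0.0455) and Bid (-0.24 ± 0.08, edgeR adjusted p = 0.0457) were just past the threshold. The Bak1 call was lost in 7 of 11 alternatives and the Bid call in 9 of 11, and each was lost without WT DMSO isosmotic replicate 2 and without WT SFN isosmotic replicate 2. Without WT SFN isosmotic replicate 1 the Bid call was lost too. The number of members called fell to 3 with RLE size factors, the replicate block or DESeq2, to 2 with the compared libraries alone and to 1, Bcl2l11, with all 16 libraries in the fit. Of all 19509 genes, 2860 passed in the fit reported, 2867 with RLE size factors, 2619 with the replicate block and 3185 with DESeq2. With the compared libraries alone 1574 passed, and with all 16 libraries 555 did. Bik had 10 and 17 counts with SFN against 35 and 43 with DMSO, and its difference of -1.60 ± 0.64 did not pass (edgeR adjusted p = 0.0999).

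During stress no member passed between SFN and DMSO in the fit of the 12 WT libraries. At 1 h, 0 of 10 passed by edgeR, 1 had an unadjusted p under 0.05 and 0.528% of all genes passed (0.410% higher and 0.118% lower). At 6 h, 0 of 10 passed by edgeR, 1 had an unadjusted p under 0.05 and 0.236% of all genes passed (0.179% higher and 0.0564% lower). DESeq2 called none of the 10 at either time. Fitted on the compared libraries alone, Mcl1 passed at 1 h (0.10, edgeR adjusted p = 0.0404), in a fit where 944 of all genes passed in place of 103. Apart from the scarce Bik and Bmf, the differences ran from -0.23 to 0.13 at 1 h and from -0.23 to 0.25 at 6 h. Bcl2l11 had 15.2 and 17.6 CPM with SFN against 18.5 and 20.0 CPM with DMSO at 1 h, and 101 and 112 CPM against 97.3 and 98.7 CPM at 6 h.

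Whether the SFN effect itself differed between stress and isosmotic conditions was tested as an interaction. At 1 h, the effect on Bcl2l1 was higher by 0.43 ± 0.10 (edgeR adjusted p = 0.0183) and that on Mcl1 by 0.41 ± 0.08 (edgeR adjusted p = 0.00488), 2 of 10 members where 3.09% of all genes passed (2.08% higher and 1.01% lower). At 6 h, Bcl2l11 (0.61 ± 0.13, edgeR adjusted p = 0.00728), Bcl2l1 (0.40 ± 0.10, edgeR adjusted p = 0.0225) and Mcl1 (0.38 ± 0.08, edgeR adjusted p = 0.00690) passed, 3 of 10 where 4.06% of all genes did (2.28% higher and 1.78% lower). All 5 differences were positive. For these genes at these times, the lower level with SFN under isosmotic conditions was thus not seen to the same extent under stress. Bid had an SFN effect of 0.02 ± 0.08 at 1 h and of -0.23 ± 0.08 at 6 h (edgeR unadjusted p = 0.00968, adjusted p = 0.389), and neither passed. The interactions of Bid did not pass either, at 0.26 ± 0.11 at 1 h (edgeR unadjusted p = 0.0320, adjusted p = 0.246) and 0.01 ± 0.11 at 6 h. Those of Bak1, 0.13 ± 0.12 at 1 h and 0.27 ± 0.12 at 6 h, did not pass. The DMSO isosmotic libraries enter the fall at 1 h with DMSO, the SFN effect under isosmotic conditions and both interactions, so these results share samples. None of the 5 interaction calls passed with all 16 libraries in the fit, and at 1 h neither passed without WT DMSO 1 h replicate 1. The Bcl2l1 call at 1 h was also lost without WT DMSO isosmotic replicate 2, WT SFN isosmotic replicate 2 or either WT SFN 1 h library. At 6 h it was lost without WT DMSO isosmotic replicate 2, WT DMSO 6 h replicate 1, WT SFN isosmotic replicate 2 or WT SFN 6 h replicate 2, that of Mcl1 without WT DMSO 6 h replicate 2 and that of Bcl2l11 without WT SFN 6 h replicate 1.

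**Figure D3:**
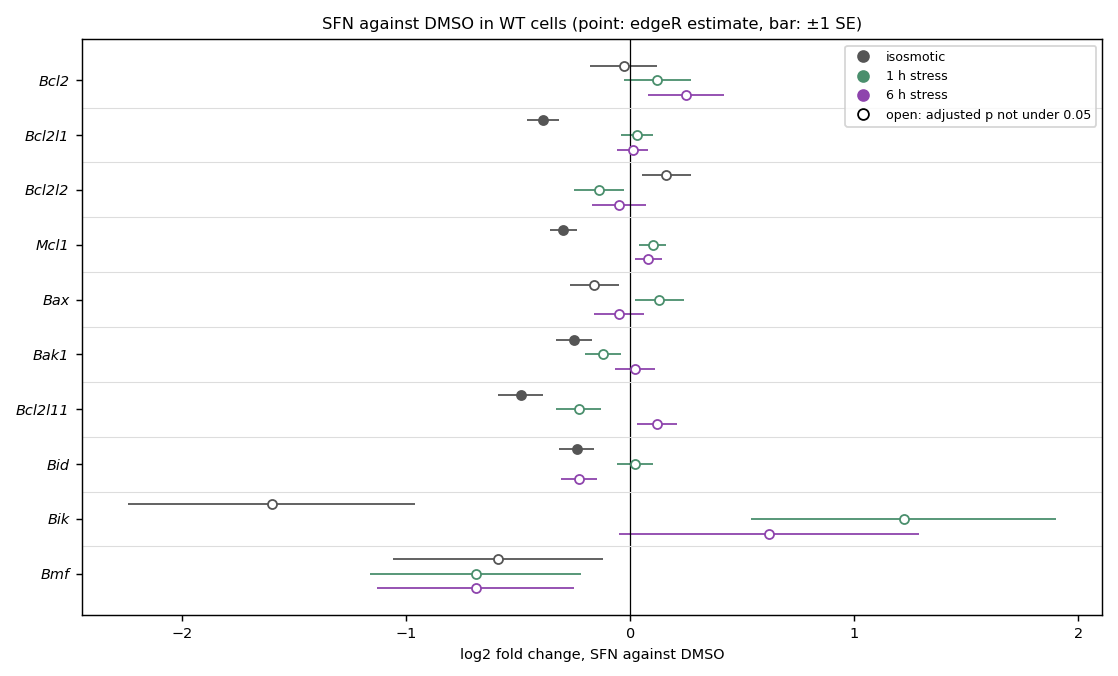
Log2 fold change of each member, SFN against DMSO in WT cells, before stress, at 1 h and at 6 h (x axis, points are edgeR estimates, bars ± 1 SE). Filled points passed the test, and all 5 of them belong to the isosmotic comparison and lie left of 0.

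The third comparison sets Nrf2-/- against WT cells, both with SFN. Only 1 Nrf2-/- line was compared with the WT line, so loss of Nrf2 and any other difference between the lines cannot be told apart. Under isosmotic conditions 2 members were higher in Nrf2-/- cells (Bcl2 and Bid) and 4 were lower (Bcl2l1, Mcl1, Bak1 and Bik), where 34.1% of all genes passed (15.7% higher and 18.4% lower). After 1 h of stress 2 were higher (Bcl2 and Bid) and 4 lower (Bcl2l1, Mcl1, Bcl2l11 and Bik), where 31.5% passed (15.3% higher and 16.2% lower). Fitted on the compared libraries alone, 1 of these 6 calls after 1 h passed, that of Bcl2, and 1526 of all genes passed in place of 6154. The WT libraries and the Nrf2-/- libraries of the 2 conditions are separate samples.

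Bcl2 differed most among the well-measured members. It had 33.0 and 34.8 CPM in Nrf2-/- and 9.30 and 9.39 CPM in WT cells under isosmotic conditions, a 3.63-fold higher level (1.86 ± 0.18, edgeR adjusted p = 1.94e-06). After 1 h it had 29.7 and 46.5 CPM in Nrf2-/- and 8.45 and 9.34 CPM in WT cells, a 4.28-fold higher level (2.10 ± 0.19, edgeR adjusted p = 7.25e-07). No Nrf2-/- library overlapped with any WT library for Bcl2. Bid had 75.7 and 80.2 CPM in Nrf2-/- and 49.4 and 50.3 CPM in WT cells under isosmotic conditions (0.65 ± 0.09, edgeR adjusted p = 7.42e-05), and after 1 h it was higher by 0.49 ± 0.09 (edgeR adjusted p = 0.000963).

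The most abundant anti-apoptotic members were lower in Nrf2-/- cells. Mcl1 had 193 and 207 CPM against 312 and 327 CPM in WT cells under isosmotic conditions (-0.68 ± 0.10, edgeR adjusted p = 0.000128) and 161 and 201 CPM against 310 and 312 CPM after 1 h (-0.78 ± 0.10, edgeR adjusted p = 3.69e-05). Bcl2l1 had 90.9 and 104 CPM against 131 and 140 CPM (-0.47 ± 0.11, edgeR adjusted p = 0.00416) and, after 1 h, 96.3 and 116 CPM against 129 and 133 CPM (-0.31 ± 0.11, edgeR adjusted p = 0.0478). For both genes the groups did not overlap. The 1 h call of Bcl2l1 was lost in 8 of 10 alternatives, among them without either WT library and without Nrf2-/- 1 h replicate 1, and its isosmotic call was lost without Nrf2-/- isosmotic replicate 2. Bcl2 and Mcl1, both guards against pore formation, thus differed in opposite directions between the lines.

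The effectors were lower or did not pass. Bak1 had 44.4 and 51.8 CPM against 62.6 and 71.1 CPM in WT cells under isosmotic conditions (-0.48 ± 0.11, edgeR adjusted p = 0.00488), a call lost without WT SFN isosmotic replicate 1 or Nrf2-/- isosmotic replicate 2, and its difference after 1 h was -0.17 ± 0.11. Bax had 29.0 and 29.8 CPM against 44.0 and 57.5 CPM, with no overlap, but a difference of -0.79 ± 0.30 did not pass (edgeR adjusted p = 0.0582). The Bax counts of the Nrf2-/- 1 h libraries, 1662 and 648, enter that fit through the shared spread. The isosmotic difference of Bax passed with only the compared libraries (-0.79, edgeR adjusted p = 5.44e-09), with no filter on low counts (-0.80, edgeR adjusted p = 1.06e-06), with DESeq2 (-0.75, adjusted p = 0.0239) and with at least 10 counts in every library (-0.77, edgeR adjusted p = 0.0449). It also passed when the 2 Nrf2-/- 1 h libraries were left out, an alternative chosen after seeing the data (edgeR adjusted p = 3.03e-06), and it did not pass with RLE size factors, with the replicate block or without any 1 of the 4 libraries compared. After 1 h Bax had 18.7 and 47.1 CPM in Nrf2-/- cells, a range of 1.33 on the log2 scale within 1 group, and the difference from WT cells was -1.52 without replicate 1 and -0.20 without replicate 2.

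Bcl2l11 had 15.4 and 15.7 CPM in Nrf2-/- cells under isosmotic conditions against 17.8 and 17.9 CPM in WT cells, a difference of -0.19 ± 0.12 that did not pass. After 1 h it had 9.83 and 11.2 CPM against 15.2 and 17.6 CPM (-0.64 ± 0.12, edgeR adjusted p = 0.000914). Bik had 0 and 0 counts in the Nrf2-/- isosmotic libraries against 10 and 17 in WT cells. Set at a floor of 3 counts per Nrf2-/- library in place of 0, Bik was 3.52-fold lower than the WT mean, as a lower bound. This value leaves out the counting error of the WT libraries. After 1 h Bik had 4 counts in all against 41 in WT cells (29 and 12), a 9.14-fold lower level with a 95% counting interval of 3.31 to 35.1. That interval pools the libraries of a group and leaves out the spread between them. The edgeR call of Bik at 1 h was lost without WT SFN 1 h replicate 1. Bmf differed by 0.43 ± 0.45 and by -0.73 ± 0.49 and passed at neither time.

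**Figure D4:**
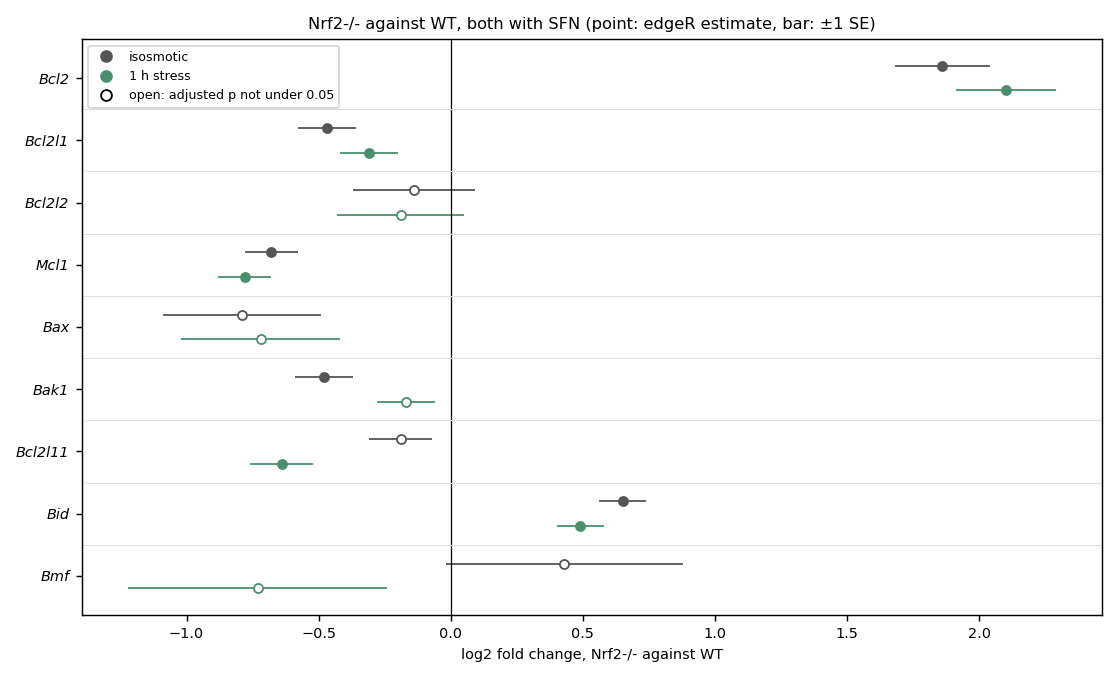
Log2 fold change of each member except Bik, Nrf2-/- against WT cells with SFN, under isosmotic conditions and after 1 h of stress (x axis, points are edgeR estimates, bars ± 1 SE). Filled points passed the test. Bcl2 (1.86 and 2.10) lies farthest right, and Mcl1 (-0.68 and -0.78) lies left of 0 at both times.

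Within Nrf2-/- cells, 1 h of stress lowered 1 member, Bcl2l11 (-0.57 ± 0.12, edgeR adjusted p = 0.0110), where 7.17% of all genes passed (4.36% higher and 2.81% lower), and its libraries did not overlap. That call was lost without either Nrf2-/- isosmotic library, and without either 1 h library 4 members were called instead of 1. No member passed the test of whether the response to 1 h of stress differed between Nrf2-/- and WT cells (0 of 10 by edgeR and by DESeq2, 1 at an unadjusted p under 0.05). Of all genes, 0.123% passed (0.0615% in each direction). The Nrf2-/- 1 h group, with its coefficient of variation of 0.348, enters this comparison. The SE ran from 0.13 for Bid to 1.87 for Bik, so a difference could be missed. Without Nrf2-/- 1 h replicate 1, 2 members passed in that test, and without replicate 2, 1 did. Bcl2l11 had the 1 unadjusted p under 0.05, with a difference of -0.45 ± 0.17.

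The surroundings of the 10 members were described with lists of related genes. Of 15 other BCL2-family genes, 10 passed the filter on low counts, and after 6 h with DMSO 4 were higher and 5 lower, beside 28.9% and 27.2% of all genes. Bcl2l15, a family member known mainly from the gut, had 8 and 17 counts before stress and 161 and 97 counts at 6 h (3.73 ± 0.44, edgeR adjusted p = 2.42e-07). Pmaip1, which encodes the BH3-only protein NOXA, rose by 0.68 ± 0.07 on the log2 scale and Bnip3l by 0.29 ± 0.08. Bok, a relative of Bax and Bak1, fell by 0.63 ± 0.08, Bad by 0.57 ± 0.11, Bcl2l12 by 0.67 ± 0.17, Bnip3 by 0.63 ± 0.17 and Bcl2l13 by 0.21 ± 0.08. Hrk, also called, had 0 and 1 counts before stress and 16 and 9 at 6 h. The Hrk call was lost without WT DMSO isosmotic replicate 1, and that of Bcl2l13 in 7 of 11 alternatives, among them the omission of that library or of either 6 h library. The median log2 fold change was -0.23 over the 10 genes. After 6 h with SFN, 5 were higher and 3 lower than in isosmotic SFN libraries, beside 30.7% and 27.5% of all genes. Bok was then higher (0.34 to 0.56 over the alternatives), as were Bbc3 (0.80 to 1.13), Pmaip1 (1.37 to 1.56), Bcl2l15 and Bnip3l. Bad, Bcl2l12 and Bcl2l13 were lower, with the calls of Bad and Bcl2l13 lost in 4 and 3 of 11 alternatives.

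SFN under isosmotic conditions lowered 3 of these 10 genes and raised none, beside 7.42% of all genes lower and 7.24% higher. Bbc3, which encodes the BH3-only protein PUMA, fell by 1.27 ± 0.16 on the log2 scale (edgeR adjusted p = 1.02e-05), Bok by 1.13 ± 0.08 (edgeR adjusted p = 1.38e-09) and Pmaip1 by 0.72 ± 0.07 (edgeR adjusted p = 1.01e-07). After 1 h of stress with DMSO, 2 were lower (Bbc3 by -1.30 ± 0.16 and Bok by -0.52 ± 0.08) and none higher, beside 9.21% and 13.3% of all genes. With SFN, 3 were higher and none lower at 1 h, beside 10.3% and 7.52% of all genes, namely Pmaip1 (0.62 ± 0.07), Bok (0.46 ± 0.08) and Bcl2l13 (0.22 ± 0.07), the last lost in 6 of 11 alternatives, among them the omission of WT SFN isosmotic replicate 1 or either WT SFN 1 h library. During stress none of the 10 differed between SFN and DMSO by edgeR at either time, with 0 at 1 h and 2 at 6 h at an unadjusted p under 0.05. Bok had 216 CPM on average with DMSO and 98.7 CPM with SFN under isosmotic conditions, and 140 and 133 CPM at 6 h.

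In Nrf2-/- cells under isosmotic conditions 3 of these 10 genes were higher than in WT cells (Pmaip1, Bok and Bnip3) and 2 lower (Bad and Bcl2l12). After 1 h 2 were higher (Bnip3 and Bnip3l) and 1 lower (Bad). The isosmotic calls of Bcl2l12 and Bok were lost in 7 and 2 of 11 alternatives, and the 1 h call of Bnip3l in 4 of 10. Among all genes 15.7% were higher and 18.4% lower under isosmotic conditions, and 15.3% and 16.2% after 1 h. Bad, a BH3-only protein controlled by phosphorylation, was lower by -1.35 ± 0.32 and -1.21 ± 0.32, and Bnip3, a mitochondrial protein of the same family, higher by 0.99 ± 0.20 and 0.84 ± 0.20. The 1 h value of Bad was -2.13 without Nrf2-/- 1 h replicate 1 and -0.65 without replicate 2. After 1 h the calls of both Bad and Bnip3 were lost with only the compared libraries. The Bad call was also lost without WT SFN 1 h replicate 1 and the Bnip3 call without WT SFN 1 h replicate 2.

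The steps downstream and beside the family were counted at 6 h, where 28.9% of all genes were higher and 27.2% lower with DMSO, and 30.7% and 27.5% with SFN. Of 10 mitochondrial death proteins and parts of the apoptosome, 0 were higher and 4 lower with DMSO, of 4 caspases 0 and 2, of 5 inhibitors of apoptosis 0 and 3, and of 7 death receptors and adaptors 1 and 3. With SFN the corresponding counts were 1 and 5, 2 and 2, 0 and 3, and 1 and 4. Casp8, the initiator caspase that cleaves BID, had 64.6 CPM on average before stress and 22.2 CPM at 6 h (-1.54 ± 0.09, edgeR adjusted p = 7.30e-12). Fadd, the adaptor that recruits it, fell by 1.71 ± 0.15 on the log2 scale, Tradd by 1.06 ± 0.12, Tnfrsf1a by 0.93 ± 0.08, Endog by 0.88 ± 0.20 and Birc3 by 1.85 ± 0.19. Cflar, which encodes the caspase 8 inhibitor c-FLIP, was the 1 receptor-side gene that rose, from 65.2 to 359 CPM (2.46 ± 0.08, edgeR adjusted p = 4.19e-16). The other receptor-side genes did not pass with DMSO, at -1.17 ± 0.52 for the receptor Fas (edgeR adjusted p = 0.0605), -0.02 ± 0.08 for Ripk1 and 0.06 ± 0.07 for Tnfrsf10b. Fas had 37 and 37 counts before stress and 8 and 17 at 6 h with DMSO. With SFN it went from 49 and 62 counts to 7 and 3 (-3.00 ± 0.58, edgeR adjusted p = 0.000136), and the difference between the pretreatments of -1.83 ± 0.79 did not pass (edgeR adjusted p = 0.243). Diablo, an antagonist of the inhibitors of apoptosis, was lower at 1 h (-0.84 ± 0.19 with DMSO and -1.07 ± 0.19 with SFN) and did not pass at 6 h.

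Of 8 regulators of the members, 7 were higher and none lower after 6 h with DMSO, with a median of 0.60, beside 28.9% of all genes higher and 27.2% lower. With SFN 5 were higher and 1 lower, with a median of 0.31. Foxo3, a transcription factor that binds FOXO sites such as the one marked in the Bcl2l11 window, had 26.2 CPM on average before stress and 58.4 CPM at 6 h (1.16 ± 0.09, edgeR adjusted p = 2.17e-10), and 1.04 ± 0.09 was its change with SFN. In Nrf2-/- cells Foxo3 was higher than in WT cells by 1.00 ± 0.18 under isosmotic conditions, where Bcl2l11 did not pass, and by 1.08 ± 0.18 after 1 h, where Bcl2l11 was lower. That 1 h value was 1.44 without Nrf2-/- 1 h replicate 1 and 0.63 without replicate 2, and it did not pass with only the compared libraries. A link between Foxo3 and Bcl2l11 was not tested. Fbxw7, part of a ubiquitin ligase that targets MCL1 protein, rose by 0.74 ± 0.09 at 6 h with DMSO and by 1.01 ± 0.09 between 1 h and 6 h.

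**Figure D5:**
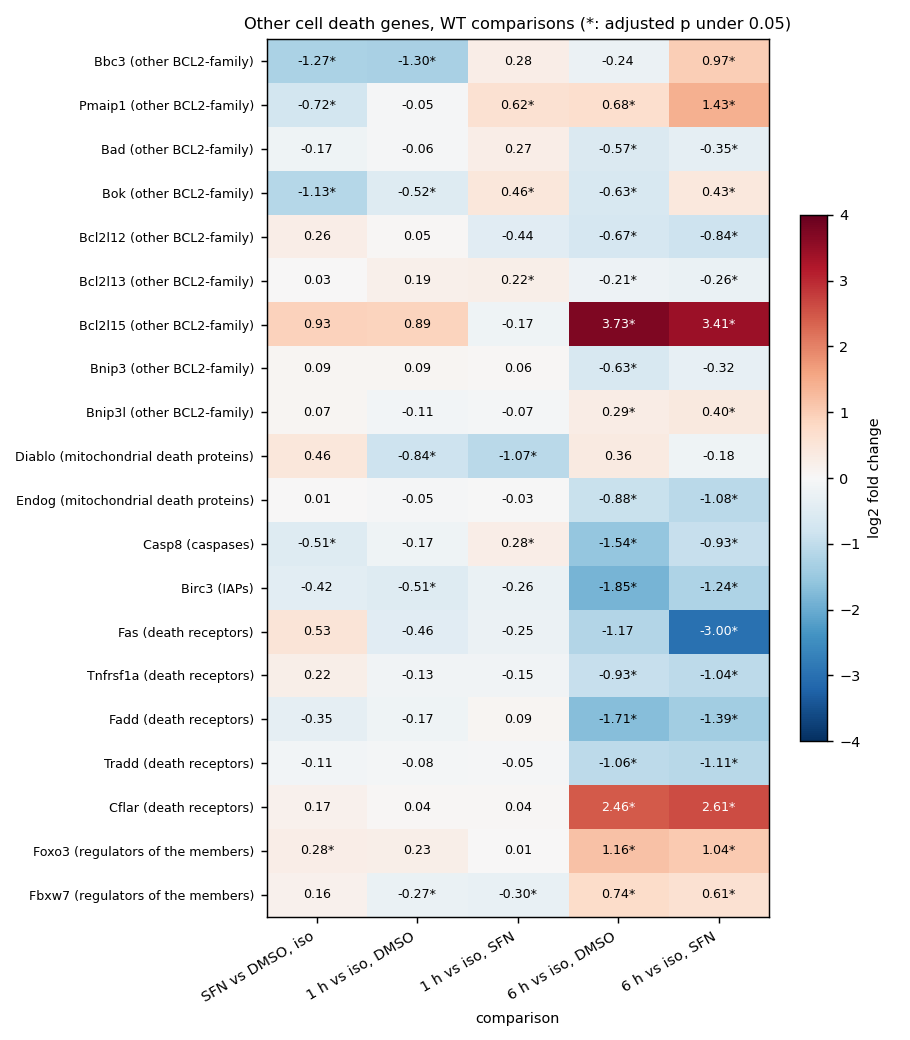
Log2 fold changes of 20 other cell death genes (rows, with their list) in 5 comparisons of WT groups (columns), with red for higher, blue for lower and an asterisk where the adjusted p was under 0.05. Hrk, with 0 and 1 counts before stress with DMSO, is not plotted. Of the genes plotted, Cflar and Bcl2l15 rose most at 6 h, and Bbc3, Pmaip1 and Bok are the genes of the other BCL2-family list that passed for SFN.

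The genes most like the 3 members with the widest range of group means were found by Pearson's r over the 8 group means of log2 CPM, as a description. Bcl2l11 (range 3.34) was nearest to Fgfr1op (0.996), Zfp787 (0.995) and AA986860 (0.995). Bcl2 (range 3.20) was nearest to 2610002M06Rik, Ppp3r1 and Ccnd1, at 0.996 each. Bik (range 4.18), which rests on few counts, was nearest to Rpl13-ps6 (0.984), Rps18-ps3 (0.981) and Adm (0.973). The candidates numbered 7200 or 7201, and the 8 points share libraries and scaling.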

How the data were processed

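Per the study's methods and the submitters' processing notes, RNA-seq reads of mIMCD3 cells were aligned to mm10 (the methods name Hisat2, the notes Bowtie2), sorted with SAMtools and counted per gene with featureCounts, and the authors deposited raw counts per gene symbol without normalization. The sources used here do not give versions, annotation, strand setting or how reads shared between genes were treated. Lines without a gene name (2 and 3 in 2 libraries) held no counts. Among counts of 1 to 10 in a library, 58.0% to 68.5% were even, for which the sources used here give no reason, and counting intervals cover counting error only.

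Groups came from the sample labels. Analyses used R 4.3.3 with edgeR 4.0.16 (TMM, robust quasi-likelihood F-test) and DESeq2 1.42.0. The edgeR filter kept 19509 of 55367 genes, and p-values were adjusted over all of them (Benjamini-Hochberg, threshold 0.05). WT comparisons were fitted on the 12 WT libraries and those with Nrf2-/- on all 16. SE is the log2 fold change divided by the root of F. With 2 libraries against 2, an exact two-sided permutation test cannot go below p = 0.333, so single values rest on the fit across genes. Groups without overlap are given as a description, and their share over all genes was not counted. On simulated data of the 12 WT libraries the fit called most of the changes it was given. That simulation had the same spread for all genes, and few genes changed, none of them scarce. It therefore does not cover the Nrf2-/- comparisons, scarce genes or a change of most genes. The members and lists were chosen with earlier results of these data known. All 10 members are named. Genes of other lists are named if they belong to the other BCL2-family genes or passed in a WT comparison with an absolute log2 fold change of at least 1. The genes most like a member were sought among genes with a range of at least 1 and a mean of at least 1 CPM. Gene lengths and overlaps came from GENCODE M21 (GRCm38), matched by symbol, and upstream windows from RefSeq.

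The alternatives were RLE size factors, DESeq2, no filter, a minimum of 10 counts per library, a fit of the compared libraries alone, a fit of all 16, the replicate number as a block, and each library left out. Bax shares its strand with Gm45808 and Bcl2l2 with Gm20521, and Bak1 overlaps Ggnbp1 and Bik Gm46495 on the other strand, so that shared reads could be lost or misassigned. The result of 1 gene is not reported here.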

Additional observations from a re-analysis of the deposited data

Results flagged for a closer look

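The SFN effect differed between stress and isosmotic conditions in WT cells, by the interaction test in edgeR, for 7 of the genes named here and at 12 points in all. At 1 h the difference was 0.43 for Bcl2l1, 0.41 for Mcl1, 1.58 for Bbc3, 0.97 for Bok and 0.68 for Pmaip1, on the log2 scale. At 6 h it was 0.61 for Bcl2l11, 0.40 for Bcl2l1, 0.38 for Mcl1, 1.22 for Bbc3, 1.06 for Bok, 0.75 for Pmaip1 and 0.61 for Casp8. All 12 values were positive, and each compares a fall with SFN under isosmotic conditions with a difference under stress that did not pass by itself. The same 4 isosmotic libraries enter all 12, so the 12 values are not independent. With all 16 libraries in the fit, the 5 calls of the 10 members were lost, while those of Bbc3, Bok and Pmaip1 at 1 h and of Bok and Pmaip1 at 6 h passed. The Casp8 call was lost in that fit and without replicate 1 of WT DMSO 6 h or of WT SFN 6 h, with an adjusted p of up to 0.224 in edgeR. No group had enough libraries for a test of single outlying libraries.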

How the results depend on the processing

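Calls of Bcl2, Bcl2l1, Mcl1, Bak1, Bcl2l11 and Bid at 6 h, with DMSO and with SFN, passed in all 11 alternatives. The number of members called for SFN under isosmotic conditions went from 5 to 3 with RLE size factors, the replicate block or DESeq2, to 2 with only the libraries compared and to 1 with all 16 libraries. Over all 19509 genes the number went from 2860 to 2867, 2619 and 3185 in the first 3 of these settings. It went to 1574 with only the libraries compared and to 555 with all 16. Only the libraries compared gave 1 in place of 0 (Mcl1) for SFN at 1 h, 1 in place of 3 for the interaction at 6 h, 1 in place of 6 for Nrf2-/- at 1 h and 0 in place of 1 for stress in Nrf2-/- cells. In the same order, 944 in place of 103, 479 in place of 792, 1526 in place of 6154 and 137 in place of 1399 of all 19509 genes passed. All 16 libraries gave 0 in place of 2 and 0 in place of 3 for the interactions at 1 h and 6 h, and no filter gave 1 in place of 0 for 1 h of stress with SFN. Over all genes, the fit of 16 libraries gave 109 in place of 603 and 148 in place of 792 of 19509. No filter gave 3703 of 34951 genes in place of 3479 of 19509. For the fits with 1 library left out, given next, the share over all genes was not counted. Leaving out 1 library gave 3 to 5 members for SFN under isosmotic conditions, 2 to 3 and 0 to 1 for 1 h of stress with DMSO and SFN, 7 to 8 for 6 h with either, 8 to 9 for 6 h against 1 h, 0 to 3 and 2 to 3 for the interactions at 1 h and 6 h, 4 to 6 and 4 to 7 for Nrf2-/- at the 2 times, 0 to 4 for stress in Nrf2-/- cells and 0 to 2 for the difference between genotypes. The 1 h change in Nrf2-/- cells without replicate 1 or replicate 2 of their 1 h group was -0.66 or 0.68 for Bax, -0.53 or 0.97 for Bad, 0.42 or -0.28 for Bnip3l and 0.43 or -0.36 for Foxo3, and the difference between genotypes was -0.75 or 0.58 for Bax and -0.80 or 0.70 for Bad, so its sign rested on 1 library. The cause was not tested. Replicate numbers, taken from the sample labels (the tables of the WT SFN isosmotic group number its libraries 2 and 3), did not pair the samples (correlations of deviations from -0.08 to 0.12 over 28 pairs of groups, 1 over 0.1), and the replicate block changed the number of members called by over 1.5 times in no comparison but SFN under isosmotic conditions. With 2 libraries a group, small changes and the scarce Bik, Bmf and Hrk are the least certain.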
